A study of Mus musculus with 6 samples.

Results

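The MHC class I antigen presentation and immunoproteasome genes examined here were H2-K1, H2-D1, B2m, Tap1, Tap2, Tapbp, Psmb8, Psmb9, Psmb10 and Nlrc5, which are 10 of the 22048 genes in the deposited RNA-Seq table. They were chosen by name for their role and found by matching Ensembl identifiers to mouse gene symbols, and all 10 were present. Samples were cultures of neural stem/progenitor cells (NSC/NPCs) from the hypothalamus of male C57BL/6 fetuses, grown as floating neurospheres with EGF and bFGF and harvested at first passage. In the HE (high estradiol) group, pregnant mice at 8 weeks of age were gavaged on E5.5 to E11.5 with 100 μg/kg/d of estradiol valerate. The NC group is labelled untreated, and the protocol and the paper state that NC mice received the corn oil solvent by the same route. Fetuses of both groups were collected at E14.5. There were 3 samples per group, each a pool of cells from 2 mice, so that values of single mice were averaged within a sample, and cells had been cultured away from the exposure before RNA was taken. All 10 genes were higher in NC1 and NC2 than in the other 4 samples, and the lower of these NC samples was 1.46 to 10.9 times the highest HE sample.

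MHC class I molecules present short peptides from inside the cell at its surface. The peptides are cut by the proteasome, whose constitutive catalytic subunits can be replaced by the induced subunits Psmb8, Psmb9 and Psmb10 to form the immunoproteasome. Tap1 and Tap2 carry peptides into the endoplasmic reticulum, where Tapbp (tapasin) helps to load them onto a heavy chain, such as H2-K1 or H2-D1, that is paired with B2m. Nlrc5 is a transactivator of class I genes, and interferons are the best known inducers of the whole set. Neural progenitor cells are often described as having little surface MHC class I unless they meet interferon.

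All 10 genes are protein-coding, and 7 of them lie on mouse chromosome 17 between 33919478 and 35267497 (assembly GRCm38.p6), an interval that holds part of the mouse MHC. From one end of this interval to the other these are Tapbp (33919478 to 33929290), H2-K1 (33996012 to 34000619), Psmb9 (34182030 to 34187330), Tap1 (34187556 to 34197225), Psmb8 (34198195 to 34201454), Tap2 (34204479 to 34216321) and H2-D1 (35263094 to 35267497). Psmb9 and Tap1 are separated by 225 bases and point away from each other. B2m is on chromosome 2 (122147687 to 122153082), and Nlrc5 (94434335 to 94527272) and Psmb10 (105935728 to 105938392) are on chromosome 8.

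Promoter sequences from RefSeq (GRCm38.p6, 250 bases before to 50 after the annotated start) were found for 8 of the 10 genes, without Tap2 and Nlrc5. The stretches below are shown because they hold the letters of elements through which interferon and NF-kB are known to act on class I genes. All lie before the start that the promoter table uses and read 5′ to 3′ on the strand of the gene. For H2-K1 this start lies inside the span of the gene given above, so its stretch is within that span. Capitals mark matches, on either strand, to GAAA, any 2 bases and GAAA (interferon-stimulated response element, ISRE), to GAA, any 2 bases and GAAA (a shorter form of it), to TTC, any 3 bases and GAA (gamma-activated sequence, GAS) and to GGG, any 3 bases, T, any base and CC (NF-kB). In H2-K1 and H2-D1 the NF-kB letters match on both strands in runs that overlap. Capitals also mark TGACG and ATTGG where 20 bases of any kind separate them, and in the Tap1 stretch TGACG alone, and the marked bases of that stretch are those that match in the Psmb9 window too, read from the other strand.
H2-K1, chr17:34000349-34000468, minus strand: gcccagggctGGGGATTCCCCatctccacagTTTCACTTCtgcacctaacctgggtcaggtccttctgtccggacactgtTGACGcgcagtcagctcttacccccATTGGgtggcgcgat
H2-D1, chr17:35262913-35263032, plus strand: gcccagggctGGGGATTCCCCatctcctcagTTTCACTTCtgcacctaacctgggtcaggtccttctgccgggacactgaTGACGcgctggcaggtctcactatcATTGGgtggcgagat
B2m, chr2:122147538-122147648, plus strand: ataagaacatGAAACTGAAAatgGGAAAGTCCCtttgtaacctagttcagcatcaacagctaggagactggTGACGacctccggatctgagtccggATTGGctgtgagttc
Tap1, chr17:34187389-34187499, plus strand: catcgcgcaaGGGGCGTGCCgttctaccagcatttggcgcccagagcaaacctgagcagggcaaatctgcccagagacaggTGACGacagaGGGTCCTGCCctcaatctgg
Psmb8, chr17:34198088-34198116, plus strand: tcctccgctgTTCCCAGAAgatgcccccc

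The spaced pair of TGACG and ATTGG was found in H2-K1, H2-D1 and B2m, against 0.0944% of the 32851 promoters in the table. It was searched for after the positions of its parts had been seen in these genes. In MHC promoters the X2 and Y boxes, to which these letters belong, are part of the module on which Nlrc5 acts. The ISRE letters were in B2m (3.44% of all promoters), the shorter form in H2-K1 and H2-D1 (7.52%) and the GAS letters in Psmb8 (8.3%). The NF-kB letters were in B2m, H2-K1, H2-D1, Tap1 and Psmb9 (17.4%). The printed stretches of H2-K1 and H2-D1 had the same base at 108 of 120 positions, and both genes have close relatives in the MHC, so reads shared between them could have been split in counting and their values are uncertain to that degree. Since use of strand in counting is not stated, reads of overlapping and antisense genes could not be told apart either.

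The reads counted on genes were between 16078675 and 19137059 per sample. Sox2 and Nes, by which the paper identified these cells, were present. Sox2 was between 97.3 and 209 RPKM (reads per kilobase of gene, scaled to the total reads of the sample) and Nes between 154 and 247 RPKM. Other progenitor markers were lower, such as Pax6 (2.30 to 4.55 RPKM), or higher, such as Vim (1234 to 1803 RPKM). The astrocyte marker Gfap was present too, at 195 to 754 RPKM. HE3 stood apart over all genes. After taking log2(RPKM + 0.1) it differed by 1 or more from HE1 in 12.9% and from HE2 in 10.8% of the 13952 genes tested, against 1.64% between HE1 and HE2. The median difference over these genes was 0.164 for HE1 minus HE3 and 0.137 for HE2 minus HE3, against 0.006 for HE1 minus HE2. A low rank of HE3 was thus not particular to the 10 genes. Since these were bulk samples, fewer cells of a type and less RNA per cell could not be told apart.

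All 10 genes were highest in NC2 and next highest in NC1. NC3 was far below both, and it lay above every HE sample in 6 of the genes, within the HE range in 3 and below it in 1. Of all genes tested, 11.1% had NC2 highest and NC1 next. In all 10 both lay at least 0.5 above the other 4 samples on the log2(RPKM + 0.1) scale, as in 1.64% of all genes. The sum of the 10 genes was 1272 RPKM in NC1, 1771 RPKM in NC2 and 326 RPKM in NC3, against 326, 306 and 242 RPKM in HE1, HE2 and HE3. The largest part of every sum came from H2-K1, H2-D1 and B2m.

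**Figure D1:**
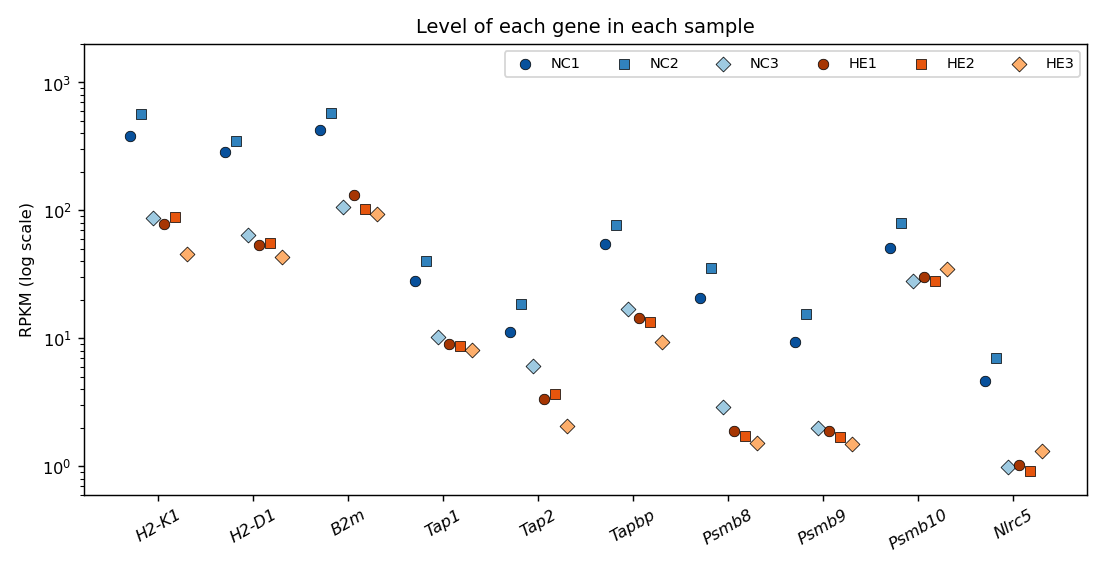
RPKM on a log scale for the 10 genes, with 1 point per sample (circle, square and diamond for samples 1, 2 and 3 of each group, NC in blue and HE in orange). NC1 and NC2 lie above the other 4 samples in every gene, and NC3 lies above the HE samples in 6 genes, within their range in 3 and below it in 1.

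Among the parts of the class I molecule, H2-K1, a heavy chain, was at 379 RPKM in NC1, 571 in NC2 and 88.0 in NC3, and at 78.1, 88.7 and 45.3 RPKM in HE1, HE2 and HE3. H2-D1, also a classical heavy chain, measured 287, 351 and 64.0 RPKM over NC1 to NC3 and 53.5, 55.7 and 43.2 RPKM over HE1 to HE3. B2m, the light chain of all class I molecules, measured 426, 575 and 107 RPKM over NC1 to NC3 and 132, 103 and 94.1 RPKM over HE1 to HE3. In each of these genes NC1 and NC2 were far above every other sample, whereas NC3 lay within the HE range for H2-K1 and B2m and just above it for H2-D1. The ratio of H2-K1 to B2m in RPKM was 0.891, 0.993 and 0.824 in the NC samples and 0.590, 0.858 and 0.481 in the HE samples, so the groups overlapped. The ratio of H2-D1 to B2m was between 0.599 and 0.674 in NC and between 0.404 and 0.539 in HE, with no overlap and with NC3 on the NC side. HE3 had the lowest value of the 6 samples in all of these genes.

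Of the genes that supply and load peptides, Tap1, a subunit of the transporter, measured 27.8, 40.3 and 10.3 RPKM over NC1 to NC3 and 8.99, 8.77 and 8.15 RPKM over HE1 to HE3. Tap2, its partner, measured 11.2, 18.6 and 6.10 RPKM over NC1 to NC3 and 3.34, 3.66 and 2.07 RPKM over HE1 to HE3. Tapbp, the loading factor, measured 54.8, 77.5 and 16.8 RPKM over NC1 to NC3 and 14.4, 13.5 and 9.40 RPKM over HE1 to HE3. In these 3 genes all HE samples lay under all NC samples, but the margin to NC3 differed. NC3 was 1.67 times the highest HE sample in Tap2 and 1.14 and 1.17 times in Tap1 and Tapbp. Tap2 in NC3 rested on 437 reads, and its exact Poisson 95% interval of 5.54 to 6.70 RPKM, which covers counting error only, lay above the upper limit of 4.13 RPKM in HE2. This margin of NC3 over the HE samples was the widest of the 10 genes, ahead of 1.52 times in Psmb8. The ratio of Tap1 to Tap2 was lowest in NC3, at 1.68, and highest in HE3, at 3.93.

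The 3 induced proteasome subunits differed in how far they varied. Psmb8, which gives the immunoproteasome its chymotrypsin-like activity in place of Psmb5, measured 20.6, 35.8 and 2.89 RPKM over NC1 to NC3 and 1.90, 1.72 and 1.52 RPKM over HE1 to HE3. Psmb9, which takes the place of Psmb6, measured 9.42, 15.4 and 2.01 RPKM over NC1 to NC3 and 1.89, 1.69 and 1.5 RPKM over HE1 to HE3. Psmb10, which takes the place of Psmb7, measured 51.1, 80.2 and 28.0 RPKM over NC1 to NC3 and 30.3, 28.2 and 35.1 RPKM over HE1 to HE3. Psmb8 had the widest range of the 10 genes among the NC samples, with NC2 at 12.4 times NC3, and Psmb10 the narrowest, at 2.86 times. Psmb10 was also the only 1 of the 10 in which NC3 was lowest of all 6 samples, and HE3, which was lowest in 8 of the 10, was highest of the HE samples here. Few reads lay behind the low values. Psmb8 had 67 reads in HE3, for a Poisson interval of 1.18 to 1.93 RPKM, and 150 in NC3, for 2.45 to 3.40 RPKM, while the intervals of Psmb9 in NC3 (1.69 to 2.37 RPKM) and HE1 (1.57 to 2.26 RPKM) overlapped.

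The constitutive counterparts did not follow this order. Psmb5 measured 80.5, 75.2 and 74.2 RPKM over NC1 to NC3 and 70.2, 83.3 and 148 RPKM over HE1 to HE3. Psmb6 ranged from 156 to 165 RPKM over the NC samples and from 189 to 254 RPKM over the HE samples. Psmb7 was the lowest of them in RPKM, at 17.3 to 20.4 over the NC samples and 21.7 to 31.1 over the HE samples. For Psmb6 and Psmb7 every HE sample lay above every NC sample, as in 2067 of the 13952 genes tested. The share of Psmb8 in the summed RPKM of Psmb8 and Psmb5 was 20.4% in NC1, 32.2% in NC2 and 3.75% in NC3, and 2.63%, 2.03% and 1.02% in the HE samples. For Psmb9 and Psmb6 the share of Psmb9 was 5.71%, 8.54% and 1.20% in NC and between 0.585% and 0.946% in HE. Psmb10 formed the larger part of the RPKM of its pair in every sample, with 74.7%, 79.7% and 59.2% in NC and 53.0% to 56.5% in HE. Such shares depend on the gene lengths used for RPKM, here 1270 bases for Psmb10 and 3421 for Psmb7. In reads, Psmb10 was above Psmb7 in NC1 (1218 against 1112) and NC2 (1950 against 1336). It was below Psmb7 in NC3 (674 against 1249) and in every HE sample. The shares are therefore no measure of subunit proportions, and are compared between samples only. For each of the 3 ratios the HE samples lay below the NC samples, with differences of the mean log2 ratio of -3.23 for Psmb8, -2.36 for Psmb9 and -1.05 for Psmb10 (exact permutation test over 20 assignments, two-sided, p = 0.1 for each and 0.1 adjusted over the 3, the smallest p possible with 3 samples against 3). These differences carry both the lower induced subunits and the higher constitutive subunits in HE. Without NC2 the difference was -2.48 for Psmb8, and without NC3 it was -4.28.

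**Figure D2:**
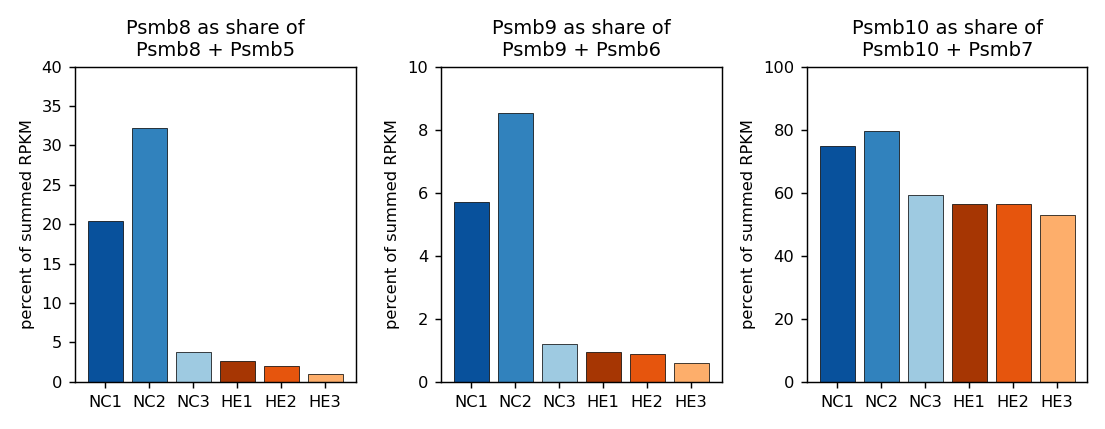
Share of each induced subunit in the summed RPKM of itself and its constitutive counterpart, in percent, with 1 bar per sample and a different upper limit in each panel. Psmb8 reaches 32.2% in NC2 and stays between 1.02% and 3.75% in NC3 and the HE samples, whereas Psmb10 lies between 53.0% and 79.7% in all samples.

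Nlrc5, the transactivator, measured 4.62, 6.998 and 0.987 RPKM over NC1 to NC3 and 1.02, 0.912 and 1.32 RPKM over HE1 to HE3. It was the lowest of the 10 genes in mean RPKM, and it had 133 to 162 reads in NC3 and the HE samples and 663 and 1024 reads in NC1 and NC2. NC3 lay within the HE range.

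Each pair of samples of the same group was then compared on the log2(RPKM + 0.1) scale, with no test since each side is 1 sample. Between NC2 and NC3 all 10 genes differed by 1 or more, with NC2 higher and a median of 2.44, against 3.84% of all genes tested (2.39% with NC2 higher). Between NC1 and NC3 it was 8 of 10, with NC1 higher and a median of 2.05, against 2.11% of all genes (1.74% with NC1 higher), and the other 2 genes, Psmb10 and Tap2, differed by less than 1. Between NC1 and NC2 it was 0 of 10, and NC1 was lower in all 10 with a median of -0.59, against 2.72% of all genes. Between the HE samples 0 of 10 differed by 1 or more in any pair, also in the pairs with HE3, where 12.9% and 10.8% of all genes did. The 10 genes were thus spread by 2.86 to 12.4 times among the NC samples and by 1.10 to 1.96 times among the HE samples.

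HE was compared with NC to ask how prenatal estradiol changed gene expression in these cells. Of the 10 genes, 0 were called at a log2 fold change of 1 or more either way with a Benjamini-Hochberg adjusted p-value under 0.05 in limma, as were 0 of all 13952 genes tested (0.0%). The paper used DESeq2 with the same cutoffs and reported differentially expressed mRNAs in both directions. DESeq2 was not run here, so the absence of calls is stated for this limma fit of all 6 samples only. Why it differs from the paper was not tested. All 10 were lower in HE, as were 56.2% of all genes, and 9 were lower by 1 or more on the log2 scale, as were 3.66% of all genes. With 8 of 10 the unadjusted limma p-value was under 0.05, with 11.8% of all genes lower in HE at that level and 20.5% (2858 genes) in either direction. In 6 of the 10 (H2-D1, Tap1, Tap2, Tapbp, Psmb8 and Psmb9) all HE samples lay under all NC samples, against 17.9% of all genes. The median log2 fold change was -1.80 over the 10 genes and -0.06 over all genes. The 10 genes were picked with results of these data known, so these counts describe them and are no independent test of the list.

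By fold change, Psmb8 was the furthest apart, with an NC mean of 19.8 ± 16.5 and an HE mean of 1.72 ± 0.188 RPKM (± SD over 3 samples), which gave a log2 fold change of -2.85 ± 0.82 (standard error) at an adjusted p of 0.195 by limma. H2-K1 went from 346 ± 243 to 70.7 ± 22.6 RPKM, which gave a log2 fold change of -1.97 ± 0.66 (standard error) at an adjusted p of 0.200 by limma. Tap2 had the smallest unadjusted p-value of the 10, 0.00242 in limma, where 11.97 ± 6.27 RPKM of the NC group stood against 3.02 ± 0.840 RPKM of the HE group, at a log2 fold change of -1.85 ± 0.40 and an adjusted p of 0.195. The log2 fold change was -1.92 for Psmb9, -1.88 for H2-D1, -1.75 for Tapbp, -1.5 for Nlrc5, -1.45 for B2m and -1.38 for Tap1. Psmb10 was the least apart, at -0.64 (standard error 0.35, adjusted p = 0.306 in limma), and was, with Nlrc5 (unadjusted p = 0.0505), 1 of the 2 genes not under an unadjusted p-value of 0.05. In all 10 genes the SD of the NC samples was larger than that of the HE samples.

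The comparison turned on which NC samples were in it. Without NC3, 9 of the 10 genes were called, all but Psmb10, among 103 calls over all genes, and the log2 fold change was -3.91 for Psmb8, -2.77 for H2-K1 and -2.18 for B2m. The adjusted p-value of the 9 was then between 0.00400 and 0.0469 in limma. Without NC2 the log2 fold change was -2.12 for Psmb8, -1.43 for H2-K1 and -0.28 for Psmb10, and the adjusted p-values of the 10 genes were between 0.420 and 0.604. Without NC1 they were between 0.502 and 0.543. At an unadjusted p-value under 0.05 there remained 3 of the 10 genes without NC1, 3 without NC2 and 5 without HE3. The direction was the same in all of these fits. NC3 was the NC sample in which the 10 genes were lowest, so the calls without it are no independent evidence of a difference.

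**Figure D3:**
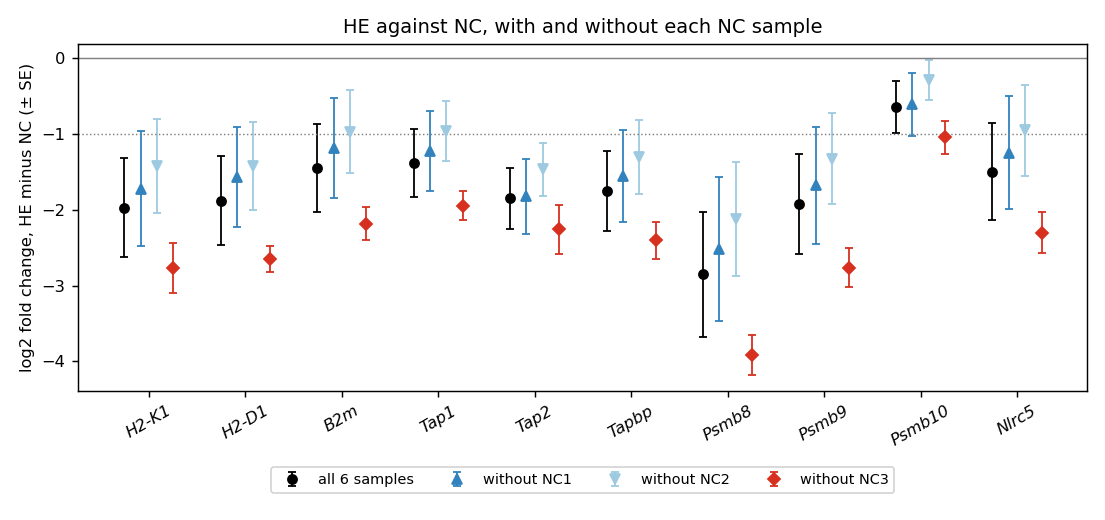
Log2 fold change of HE minus NC for the 10 genes with its standard error, in the fit of all 6 samples and with each NC sample left out. All values are below 0, and those without NC3 are furthest from 0, with -3.91 for Psmb8 and -1.04 for Psmb10.

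Other genes of the pathway were taken from lists by role. Among other MHC class I genes, 12 of the 18 in the table were tested, 11 were lower in HE, 0 were called, 8 were at an unadjusted limma p-value under 0.05, and the log2 fold changes had a median of -1.47. With no filter beyond 1 read this median was -0.51. H2-Q4, a non-classical heavy chain, measured 49.4, 81.0 and 9.11 RPKM over NC1 to NC3 and 5.62, 6.28 and 4.31 RPKM over HE1 to HE3. H2-T23, which encodes the heavy chain Qa-1, measured 31.9, 56.0 and 4.28 RPKM over NC1 to NC3 and 4.58, 4.85 and 3.14 RPKM over HE1 to HE3, and H2-T22, a related heavy chain, 39.0, 57.5 and 11.7 against 11.1, 10.6 and 13.3 RPKM. All of these had NC1 and NC2 above the other 4 samples, as 10 of the 12 did, and all share sequence with other class I genes, so their reads are uncertain in the same way. In H2-T23 and H2-T22 the groups overlapped at NC3, whereas H2-Q4, H2-Q7 and H2-Q10 had every HE sample below every NC sample. H2-Q7 and H2-Q10 had log2 fold changes of -2.17 and -1.68. Fcgrt, the neonatal Fc receptor, which is built like a class I heavy chain but does not present peptides, ranged from 11.9 to 20.6 RPKM over the NC samples and from 8.27 to 16.2 RPKM over the HE samples.

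Of 16 other peptide loading and trimming genes, among them chaperones, translocon subunits and peptidases, 12 were higher and 4 lower in HE. None was called in limma, 1 was higher and 1 lower at an unadjusted p-value under 0.05, and the log2 fold changes had a median of 0.09. Calr, a chaperone of the loading complex, ranged from 449 to 485 RPKM over the NC samples and from 472 to 552 RPKM over the HE samples, and Canx, a related chaperone, from 156 to 174 and from 164 to 185 RPKM. Hspa5 had a log2 fold change of 0.03 and Ganab of 0.09. The exception by size was Tapbpl, a homolog of tapasin that also edits peptides, which measured 6.18, 7.53 and 2.92 RPKM over NC1 to NC3 and 2.42, 2.30 and 1.88 RPKM over HE1 to HE3 (log2 fold change -1.20 ± 0.34, standard error, limma adjusted p 0.195). It lay in the same order as the 10 genes, with NC2 and NC1 on top.

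Among the 10 proteasome activator and assembly genes, Psme1 and Psme2, which form the PA28 cap, had NC1 and NC2 above the other 4 samples. Psme1 measured 37.5, 42.5 and 20.4 RPKM over NC1 to NC3 and 20.7, 17.5 and 18.5 RPKM over HE1 to HE3, and Psme2 35.9, 49.3 and 25.1 against 25.01, 23.3 and 30.2 RPKM. Pomp and Psmg4, which help to assemble the proteasome, were above NC in every HE sample, with log2 fold changes of 0.33 and 0.36. Of all 13952 genes tested, 2067 had this order of the groups. Over the list 7 genes were higher and 3 lower in HE, 0 were called in limma, and 2 were higher and 1 lower at an unadjusted p-value under 0.05.

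MHC class II genes were at lower levels, and 5 of 11 passed the filter on low counts, of which 0 were called in limma and 1, Ciita, was lower at an unadjusted p-value under 0.05. H2-Ab1 measured 19.2, 18.5 and 14.9 RPKM over NC1 to NC3 and 14.7, 19.9 and 4.03 RPKM over HE1 to HE3, so that HE3 was apart from the others. Its partner H2-Aa, by contrast, was between 0 and 0.256 RPKM in all samples and was not tested. Cd74, the invariant chain, was at 2.08 RPKM in NC1 and between 0.112 and 0.519 RPKM in the other samples, and H2-DMa ranged from 3.76 to 4.36 RPKM over the NC samples and from 4.15 to 5.496 RPKM over the HE samples. Ciita, the class II counterpart of Nlrc5, ranged from 0.583 to 0.679 RPKM over the NC samples and from 0.259 to 0.425 RPKM over the HE samples, with NC3 on the side of NC.

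Of the 19 regulators of class I transcription 14 were lower and 5 higher in HE, and 0 were called in limma. At an unadjusted p-value under 0.05 were 7 lower and 1 higher, and 9 lay below NC in every HE sample. Of all genes tested, 56.2% were lower in HE, 11.8% were lower at that level and 17.9% lay below NC in every HE sample. Irf1, an interferon-induced activator of these promoters, measured 31.0, 54.4 and 11.9 RPKM over NC1 to NC3 and 9.47, 8.47 and 6.26 RPKM over HE1 to HE3 (log2 fold change -1.76 ± 0.50, standard error, limma adjusted p 0.195). Irf9 and Stat2, factors of the type I interferon response, had log2 fold changes of -1.71 and -1.52. In these 3 genes, as in the 10, NC2 was highest and NC1 next. Rela, a subunit of NF-kB, measured 24.3, 23.2 and 19.0 RPKM over NC1 to NC3 and 14.9, 16.1 and 10.4 RPKM over HE1 to HE3, and Stat3, a transducer of many cytokines, 62.2, 79.3 and 60.3 against 52.3, 55.6 and 41.9 RPKM, so for them NC3 lay on the side of NC. Nfyc, a subunit of the factor that binds the Y box, ranged from 11.9 to 15.6 RPKM over the NC samples and from 15.5 to 20.9 RPKM over the HE samples.

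Of the 10 interferon receptor and kinase genes 8 were lower in HE, 0 were called in limma and 2 were lower at an unadjusted p-value under 0.05. Ifnar1 ranged from 19.7 to 21.3 RPKM over the NC samples and from 19.6 to 23.9 RPKM over the HE samples, Ifngr1 from 14.8 to 16.9 and from 15.7 to 16.8 RPKM, and Ifngr2 from 18.0 to 21.6 and from 15.4 to 17.5 RPKM. Ifnar2, the other chain of the type I receptor, measured 7.78, 8.26 and 6.64 RPKM over NC1 to NC3 and 6.49, 5.21 and 7.44 RPKM over HE1 to HE3, with NC2 and NC1 highest. Socs3, a feedback inhibitor of cytokine signaling, ranged from 37.7 to 49.3 RPKM over the NC samples and from 18.4 to 43.1 RPKM over the HE samples. Usp18, an interferon-induced inhibitor of the type I receptor, measured 12.7, 21.4 and 1.48 RPKM over NC1 to NC3 and 0.921, 0.733 and 0.914 RPKM over HE1 to HE3. Of the 9 interferon ligand genes present 0 passed the filter on low counts, and their summed level was between 0.0656 and 0.565 RPKM.

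Interferon-stimulated genes outside the class I pathway had NC1 and NC2 above the other 4 samples in all 23 genes tested. Of the 29 present, the other 6 reached the level of the filter in fewer than 3 samples. Mx1, an antiviral GTPase and 1 of these 6, had 215 and 444 reads in NC1 and NC2 and 1 to 7 reads in the other samples. All 23 were lower in HE, 0 were called in limma, 22 were at an unadjusted limma p-value under 0.05, and the median log2 fold change was -2.72. Relative to the HE mean of each gene, the median of the list was 3.54 in NC1, 4.11 in NC2 and 0.52 in NC3 on the log2 scale, where the 10 genes were at 2.08, 2.64 and 0.29. Irf7 measured 37.7, 65.8 and 1.96 RPKM over NC1 to NC3 and 1.55, 1.55 and 0.638 RPKM over HE1 to HE3, and Bst2, an antiviral surface protein, 304, 451 and 37.4 against 29.9, 27.6 and 21.6 RPKM. Gbp2 and Ifit3 had log2 fold changes of -3.14 and -3.86, and Gbp5 and Rsad2 of -3.90 and -3.53. Ifitm3 differed in order, with 274 RPKM in NC1, 158 in NC2 and 101 in NC3, against 51.7 to 92.7 RPKM in HE.

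**Figure D4:**
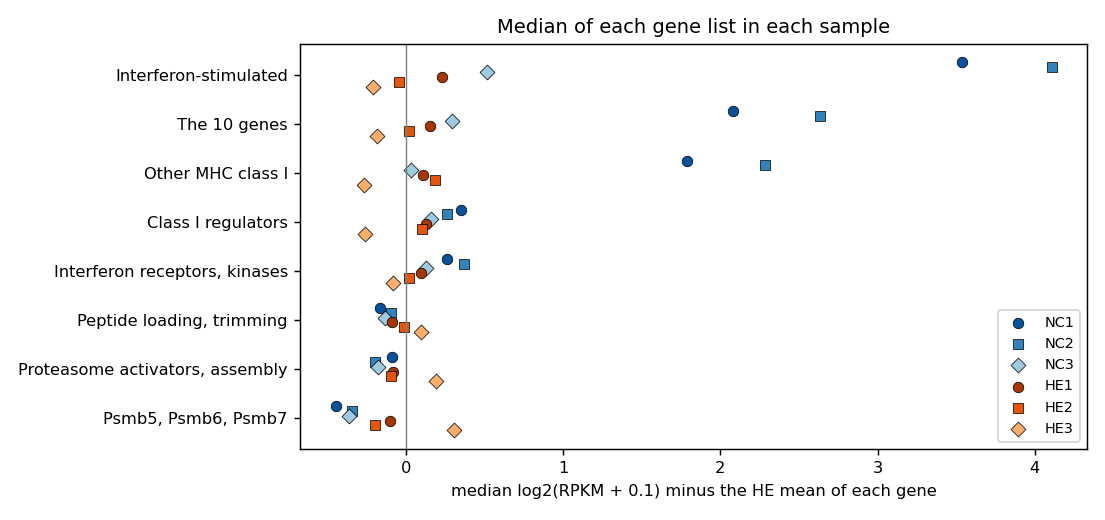
Median over the tested genes of each list of log2(RPKM + 0.1) minus the HE mean of the same gene, with 1 point per sample. NC1 and NC2 lie at 3.54 and 4.11 for interferon-stimulated genes and at 2.08 and 2.64 for the 10 genes, and within 0.5 of 0 for the 5 lowest lists, where NC3 and the HE samples lie too.

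Likeness to the 10 genes was also measured over all genes, as the root mean square difference over the 6 samples between the centred log2(RPKM + 0.1) profile of a gene and the mean centred profile of the 10. The closest of 12345 genes were Ifih1, Rnf213, Irf9, Irf1, Cmpk2, H2-M3, Irgm2, Nat8, Gbp7 and Parp9, at differences of 0.12 to 0.20, against a median of 1.11. The 10 genes themselves were at 0.12 (Tapbp) to 0.67 (Psmb8), so that Psmb8 and Psmb10 (0.65) were less like the mean profile than each of these other genes was. Ifih1, a sensor of double-stranded RNA, measured 2.80, 4.33 and 0.595 RPKM over NC1 to NC3 and 0.527, 0.475 and 0.480 RPKM over HE1 to HE3. H2-M3, a class I heavy chain that presents formylated peptides, measured 11.52, 14.6 and 2.42 RPKM over NC1 to NC3 and 2.49, 2.33 and 2.42 RPKM over HE1 to HE3. Nat8, an acetyltransferase gene that was in none of the lists, measured 5.84, 8.47 and 1.504 RPKM over NC1 to NC3 and 0.995, 1.49 and 0.997 RPKM over HE1 to HE3.

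Other genes of the chromosome 17 interval that holds 7 of the 10 were counted for comparison, without any gene of the H2 family. Of these 52 were tested, 43 were lower and 9 higher in HE, 4 were lower by 1 or more on the log2 scale, and the median log2 fold change was -0.31. NC1 and NC2 lay above the other 4 samples in 18 of the 52, against 2664 of all 13952 genes (19.1%) and all 10 of the genes described here.

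Markers of other cell types were read beside these values. The 15 microglia and macrophage markers, taken as a sum, ranged from 26.7 to 31.9 RPKM over the NC samples and from 27.5 to 30.9 RPKM over the HE samples, and Ptprc, the common leukocyte antigen, was at 0 reads in NC1 and NC2. Of the 8 tested, C1qb, Tmem119 and Adgre1 were above NC in every HE sample, with 0 to 2 reads of C1qb in NC and 12 to 35 in HE. Cd68, a lysosomal protein of macrophages, went the other way with 12.8, 16.6 and 10.7 RPKM from NC1 to NC3 and 8.13, 8.59 and 4.60 RPKM from HE1 to HE3, so that NC2 and NC1 were highest in it too. The sum of 10 endothelial markers ranged from 3.01 to 4.18 RPKM over the NC samples and from 4.96 to 6.37 RPKM over the HE samples. Of the 5 tested, 3 were higher and 2 lower in HE. Cdh5 and Esam were above NC in every HE sample, whereas Flt1 and Vwf had log2 fold changes of -0.20 and -0.34. Every HE sample lay above every NC sample in 2067 of the 13952 genes tested. The sum of 9 lymphocyte markers ranged from 0.434 to 0.818 RPKM over the NC samples and from 0.568 to 1.28 RPKM over the HE samples, and 0 were tested. For these 3 lists NC1 and NC2 were not above the HE samples together, unlike the 10 genes. The 10 mesenchymal and perivascular markers summed to 158, 64.2 and 95.7 RPKM in NC and to 213, 184 and 101 RPKM in HE, led by Col3a1 and Tagln.

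Among neural lists of 12 progenitor, 8 astrocyte, 8 neuron and 8 oligodendrocyte lineage markers, 0 genes were called in limma. Under an unadjusted p-value of 0.05 stood 2 progenitor genes lower in HE, 1 astrocyte gene (S100b, log2 fold change 0.92) higher in HE and 1 neuron gene (Map2, 0.49) higher in HE, and 0 of the oligodendrocyte lineage. Vim ranged from 1729 to 1803 RPKM over the NC samples and from 1234 to 1764 RPKM over the HE samples. Gfap, the astrocyte filament, measured 624, 754 and 624 RPKM over NC1 to NC3 and 650, 387 and 195 RPKM over HE1 to HE3, and the summed level of the 8 astrocyte markers was 1612, 1927 and 1548 RPKM in NC and 1588, 1268 and 1122 RPKM in HE. NC2 was highest in this sum as in the 10 genes, while NC1 was close to NC3 and HE1. In 4 of the 8 astrocyte markers (Aqp4, Aldh1l1, Slc1a3 and Slc1a2) NC2 was highest and NC1 next, as in the 10 genes. Aqp4, the water channel of astrocytes, measured 37.5, 47.7 and 20.2 RPKM over NC1 to NC3 and 31.4, 23.2 and 15.6 RPKM over HE1 to HE3. Aldh1l1, a folate enzyme of astrocytes, measured 583, 698 and 553 RPKM over NC1 to NC3 and 502, 482 and 530 RPKM over HE1 to HE3. Whether the makeup of the cultures had a part in the values of the 10 genes was not tested.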

How the data were processed

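RNA-Seq of 3 HE and 3 NC samples was used. The authors trimmed adaptors and poor reads, mapped what was left to mm10 with TopHat2 (the submitters' processing notes also name CASAVA 1.7) and counted reads on each gene. The counting tool, annotation and strand setting are not given in the sources used here. The paper and the labels name different sequencers, and the paper alone describes the libraries as strand-specific. The deposited table holds raw read counts, written with comma separators (a check of units could not read them, so edgeR and DESeq2 were not run), and RPKM, made by the authors from these counts with gene length and sample total (largest difference from this formula 4.99e-07). One read on a 1-kilobase gene was 0.0523 to 0.0622 RPKM.

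Symbols were found for 21781 of 22048 identifiers. The test was limma 3.58.1 under R 4.3.3, with its trend option, of log2(RPKM + 0.1), which understates fold changes of low genes, with group as the only term. Genes entered the test if 3 or more samples reached 10 reads, scaled to the median library, and all 6 together 15 reads. These were 13952 genes, among them the 10 described. Nothing says that samples of a group came from separate litters, so p-values measure the spread between these pools. The fit was tested on simulated counts. Coordinates and promoters are from RefSeq for GRCm38.p6, the build of mm10.

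The 10 genes and the gene lists were chosen with earlier results of these data known. By the rule for other genes, the text names up to 4 tested genes per list by mean RPKM, up to 4 with a log2 fold change of at least 1 either way and no overlap of groups, and the 10 closest profiles with a mean log2 CPM of at least 1. Not all of these are reported here. Irf1 and Irf7 were named as interferon references. H2-Aa, Ptprc, Mx1, Ifnar2, Aqp4, Slc1a2, S100b, the search for the spaced promoter letters and the chromosome 17 interval were chosen after values were seen. Alternatives were a pseudocount of 1, median-of-ratios scaling, 2 other filters, a replicate block, leaving out each sample in turn, voom on read counts and sample quality weights.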

Additional observations from a re-analysis of the deposited data

How the results depend on the processing

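All 10 genes were lower in HE in each of the 14 fits. With 1 sample left out, the number of the 10 genes called ranged from 0 to 9, of all genes called from 0 to 103, of the 10 genes lower at an unadjusted p-value under 0.05 from 3 to 10, and of all genes at that level from 1342 to 3107. The 9 and 103 calls came without NC3, the NC sample in which the 10 genes were lowest, and each of the other 5 such fits called 0. Sample quality weights in limma, with 0.158 for HE3 and 0.852 to 2.87 for the others, called 1 of the 10 genes (Tap2) and 268 genes in all. The other alternatives called 0. Without leaving out a sample, the median log2 fold change of the 10 genes was -1.58 (pseudocount of 1) to -1.81 (voom), and with 1 sample left out -1.32 to -2.35. The number of the 10 genes past 1 in each pair of samples was the same under every alternative run. For the MHC class II list the median log2 fold change was 0.17 with no filter beyond 1 read, -0.30 with a pseudocount of 1, -0.03 with sample quality weights and -0.03 without HE3, against -0.71. The filter setting admits genes with few reads, and for the others the cause was not tested.

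The labels do not say that a replicate number marks a shared animal or day. Same-numbered samples correlated in their deviations from the group means at 0.156, 0.087 and 0.060 over the genes tested, and each sample correlated best with its own number, which is a hint from the data of a pairing and not part of the design. With the replicate block 0 of the 10 genes and 0 of all genes were called, as without it, the adjusted p-values of the 10 in limma were 0.0782 to 0.294, and 9 of the 10 and 3184 of all genes had an unadjusted p-value under 0.05. For the 3 subunit ratios the block gave the same differences of -3.23, -2.36 and -1.05, with p = 0.25 by exact sign flips, the smallest p possible.

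Depth limits Psmb8, Psmb9 and Nlrc5 most, with 67 to 162 reads each in NC3 and the HE samples. There counting error alone allowed, for example, 1.18 to 1.93 RPKM of Psmb8 in HE3. Tap2 is limited too, with 126 reads in HE3, 226 in HE1, 264 in HE2 and 437 in NC3. Groups of 3 samples were not tested for outlying samples.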
